A study of Mus musculus with 22 samples.

Results

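Basal radial glia (bRG) were set against proliferative apical radial glia (aRG-P) by the positions of 2 histone marks on the autosomes of the mouse neocortex at E14.5, E standing for embryonic day. The comparison rests on 4 peak lists, 1 for each cell type and mark, for each of which the labels give 2 immunoprecipitated samples of C57BL/6JOlaHsd mice. No genotype or treatment distinguishes the 2 groups in the labels. The members were all autosomal peaks of these lists, 38092 of the 110069 peaks in the 10 lists of the series. H3K4me3 gave 14596 peaks in bRG and 15475 in aRG-P, and H3K27me3 gave 3387 peaks in bRG and 4634 in aRG-P. The series also holds lists for neuroepithelial cells (NEC) from E9.5, and for neurogenic apical radial glia (aRG-N) and neurons (N) from E14.5, which are used below only to say where else a region was marked.

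Radial glia are the stem cells of the developing cortex. Apical radial glia keep contact with the ventricle and divide at its surface, whereas basal radial glia have left that surface, divide in outer layers and are rare in mouse compared with species that have a folded cortex. H3K4me3, trimethylation of lysine 4 of histone H3, sits at the start sites of active and poised genes. H3K27me3, trimethylation of lysine 27, is laid down by Polycomb repressive complex 2 and often forms wide domains over silent developmental genes. Many such genes in progenitors carry both marks at once.

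Peaks were called on combined samples. Spread between replicates could therefore not be measured, and bRG and aRG-P are compared without a test. Intervals are exact Clopper-Pearson 95% intervals and cover counting error only. Read depth is unknown. The lists were kept near transcripts, per headers and peak names, so absence and distance refer to listed peaks only. Over all chromosomes, 26.5% of the bRG and 35.7% of the aRG-P H3K27me3 peak numbers are not listed. For H3K4me3 these shares are 8.63% in bRG and 8.65% in aRG-P. The authors' lists were not made in one way. Per its peak names, something was left out of the aRG-P H3K27me3 data, so how many samples stand behind that list is not settled, and the aRG-P H3K4me3 header names a window of 2000 bp that the bRG header lacks. The part of these steps in the differences was not tested. The cell types are called as labelled, since marker genes could not be placed on these lists with the gene table at hand. Positions are 1-based in mouse build mm9. A peak is called shared when at least 1 bp of it overlaps a peak of the same mark in the other list, and isolated when no such peak lies within 5000 bp.

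H3K4me3 was nearly the same in both cell types, and all of the strongest sites were found in both. Of the 14596 bRG peaks, 1172 had no overlapping aRG-P peak (8.03%, interval 7.59 to 8.48%). Of the 15475 aRG-P peaks, 1058 had none in bRG (6.84%, interval 6.44 to 7.25%). Each list was split into 4 equal bins by fold enrichment, the peak caller's ratio of signal to background, and no peak in the top bin of either list was unshared. In the next bin 1 bRG peak and 3 aRG-P peaks were unshared. In the lowest bin the share was 29.9% in bRG and 24.5% in aRG-P. The median fold enrichment in bRG was 4.48 for unshared and 9.24 for shared peaks, and in aRG-P it was 4.88 for unshared and 9.43 for shared ones. Unshared peaks were also shorter, with a median of 284 bp against 814 bp for shared ones in bRG. In aRG-P these medians were 234 and 676 bp. A longer peak meets the 1 bp rule more easily, and how far this shaped the bins was not tested.

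**Figure D1:**
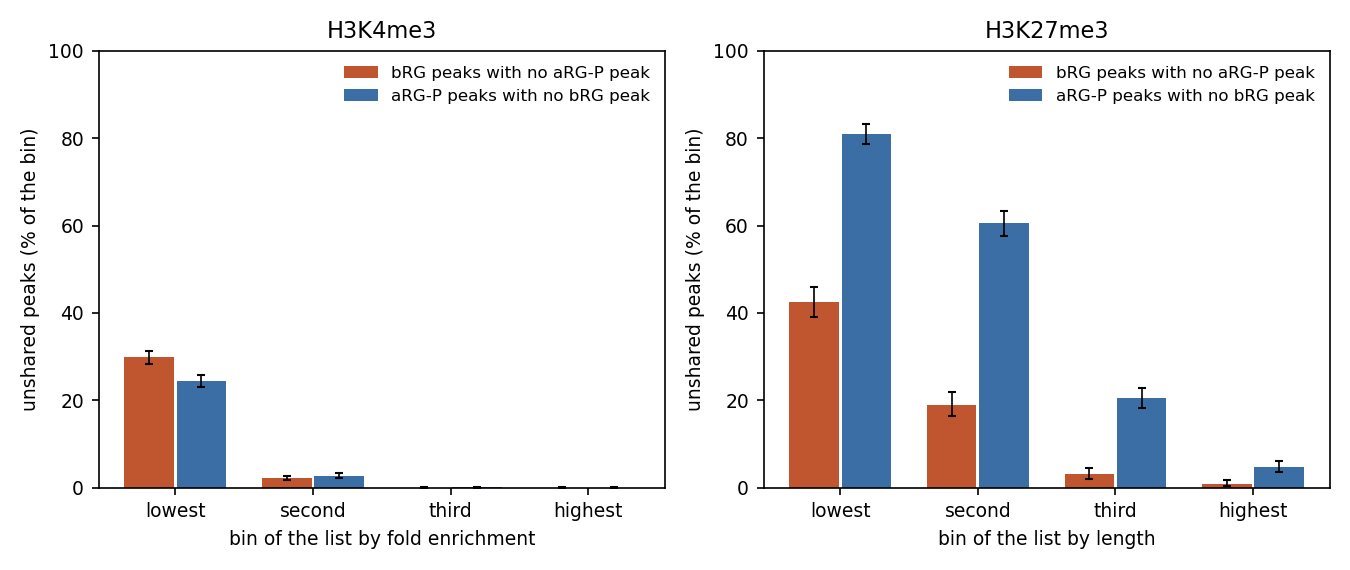
Share of unshared peaks (%) in each of 4 equal bins of the bRG list (orange) and the aRG-P list (blue), with peaks ranked by fold enrichment for H3K4me3 and by length for H3K27me3; error bars are exact 95% intervals. Unshared H3K4me3 peaks sit mostly in the lowest bin, at 29.9% in bRG and 24.5% in aRG-P, and unshared H3K27me3 peaks in the bins of short peaks, where the lowest reaches 42.5% in bRG and 81.0% in aRG-P.

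Most unshared H3K4me3 peaks lay beside a peak of the other list. Within 5000 bp of an aRG-P peak were 833 of the 1172 unshared bRG peaks, at a median distance over all 1172 of 348.5 bp. Within 5000 bp of a bRG peak were 690 of the 1058 unshared aRG-P peaks, at a median distance over all 1058 of 397 bp. This left 339 isolated peaks in bRG (2.32% of its list) and 368 in aRG-P (2.38%). The counts moved with the overlap rule. With at least 50% of a peak overlapped, 1856 bRG and 1402 aRG-P peaks were unshared, and the isolated peaks are those left when any peak within 5000 bp counts as shared. Close to the 1 bp limit, 118 unshared bRG peaks and 150 unshared aRG-P peaks lay within 100 bp of a peak of the other list, and 31 bRG and 27 aRG-P peaks were shared over less than 10% of their length. In the 12889 regions that held peaks of both lists, the bRG peaks covered more bases than the aRG-P peaks in 71.7%. The median length covered in those regions was 0.849 kb in bRG and 0.757 kb in aRG-P. The aRG-P mark was split into more pieces in 1306 of them, and the bRG mark in 411.

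The 10 isolated bRG H3K4me3 sites with the highest fold enrichment ranged from 7.25 to 10.8. Their fold enrichments are set beside those of other lists only to describe each site, since each list has its own scale. At chromosome 5 (113919473 to 113920054) the fold enrichment was 8.27 in bRG, with the next aRG-P peak 179710 bp away, and peaks were also present in aRG-N (8.56), NEC (12.8) and N (5.52). On chromosome 7 from 6315754 to 6316463 the value was 8.02 in bRG, and peaks were present in aRG-N (7.61), NEC (14.8) and N (6.61). In these 2 regions aRG-P was the only list without H3K4me3. A site on chromosome 1 from 145487879 to 145488939 (7.25 in bRG) was marked in aRG-N and N and had no peak in NEC or aRG-P. Of the 10 sites, 8 were marked in aRG-N, 7 in NEC and 9 in N, so only 1 was found in bRG alone. Of all 339 isolated bRG peaks, 86.4% were marked in aRG-N, 91.4% in NEC and 54.0% in N. In bRG, H3K27me3 overlapped 28.3% of all 339 isolated peaks and 1 of the 10 sites. That site, on chromosome 9 from 50911463 to 50912236 (7.25), carried H3K27me3 in all 5 cell types, with a peak of 0.413 kb in bRG and 1.68 kb in aRG-P.

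The 10 isolated aRG-P sites ranged from 7.28 to 10.3 in fold enrichment. All 10 were marked by H3K4me3 in aRG-N and in NEC, and 5 in N, and of all 368 isolated aRG-P peaks 67.7% were marked in aRG-N, 92.9% in NEC and 50.5% in N. H3K27me3 overlapped 4 of the 10 in bRG and 5 in aRG-P, close to the 42.4% and 46.2% of all 368 isolated aRG-P peaks. On chromosome 12 from 8308514 to 8308773 the aRG-P H3K4me3 peak (7.28) lay in an H3K27me3 domain of 8.86 kb in bRG and 9.73 kb in aRG-P. On chromosome 1 from 34734874 to 34735383 (7.28) the H3K27me3 peaks measured 0.788 kb in bRG and 1.61 kb in aRG-P. A site on chromosome 14 from 66572342 to 66572781 (8.56) lacked H3K4me3 in bRG alone among the 5 lists, and its nearest bRG peak was 115379 bp away. On chromosome 19 from 17211257 to 17211577 (7.33) NEC, aRG-P and aRG-N had H3K4me3 and bRG and N lacked it, with no H3K27me3 in any list.

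Few unshared H3K4me3 sites belonged to 1 cell type. Of the 1172 unshared bRG peaks, 25 were found in no further list and 502 in all 3. Among the other 3 lists, NEC alone held 59 of them, N alone 57 and aRG-N alone 49. Of the 1058 unshared aRG-P peaks, 47 were found in no further list and 324 in all 3. Here NEC alone held 131, N alone 65 and aRG-N alone 24. NEC, the longest H3K4me3 list, overlapped 84.6% of unshared bRG peaks and 85.3% of unshared aRG-P peaks. In aRG-N the shares were 80.6% for bRG and 64.2% for aRG-P, and in N they were 59.2% for bRG and 51.4% for aRG-P. Among shared peaks every one of these shares was at least 96.3%.

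**Figure D2:**
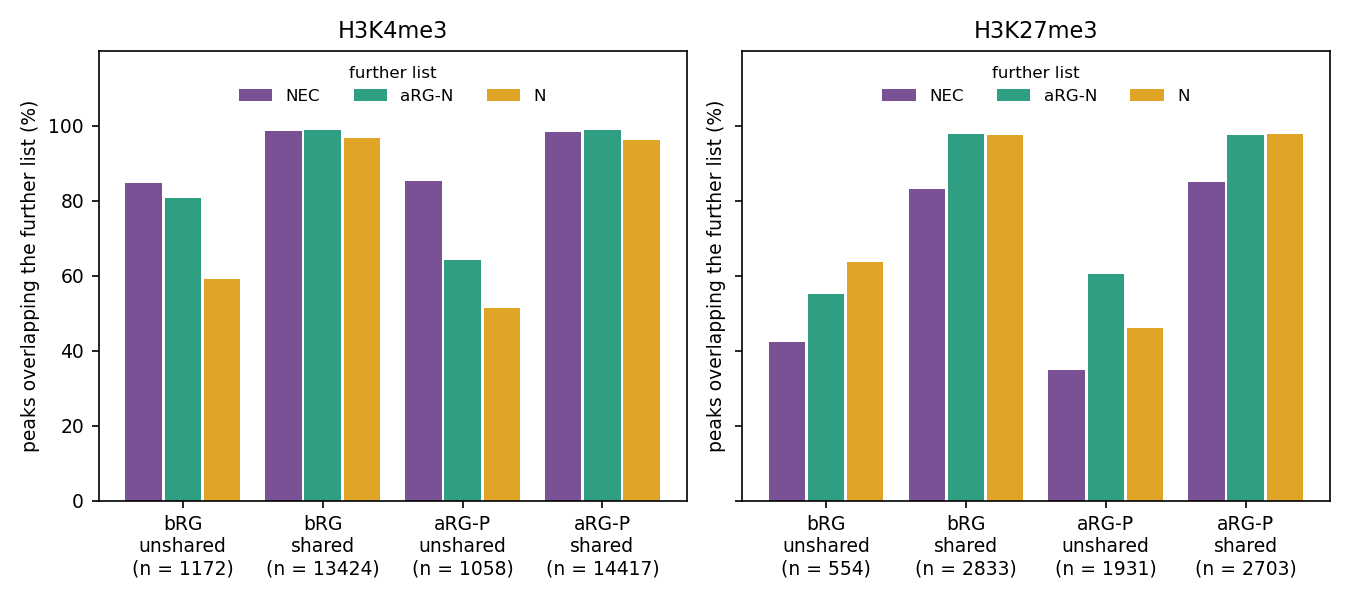
Share of bRG and aRG-P peaks (%) that overlap a peak of the same mark in NEC, aRG-N or N, for peaks unshared and shared between bRG and aRG-P. Shared peaks were mostly present in the further lists, while N overlapped 59.2% of unshared bRG H3K4me3 peaks and 63.5% of unshared bRG H3K27me3 peaks.

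For H3K27me3 a larger share of each list was unshared than for H3K4me3, and most unshared peaks were present in aRG-P and absent in bRG. Of the 3387 bRG peaks, 554 had no aRG-P peak (16.4%, interval 15.1 to 17.6%). Of the 4634 aRG-P peaks, 1931 had no bRG peak (41.7%, interval 40.2 to 43.1%). Shared bases made up 87.6% of the 12.4 Mb covered in bRG and 66.9% of the 16.3 Mb covered in aRG-P. The isolated peaks numbered 362 in bRG and 1504 in aRG-P. By chromosome the unshared share ran from 8.75% on chromosome 18 to 25.7% on chromosome 14 in bRG, and in aRG-P from 51 of 143 peaks on chromosome 13 to 62 of 124 on chromosome 16.

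The bRG list stopped at a higher score than the aRG-P list, and its length moved with the count. The lowest score, in the first of the 3 score columns, was 15.6 in bRG and 13.2 in aRG-P. Below 15.6 lay 835 of the 1931 unshared aRG-P peaks (43.2%) and 6.66% of the shared ones. With both lists limited to this common score, 721 of 3387 bRG peaks (21.3%) and 1096 of 3619 aRG-P peaks (30.3%) were unshared. With both lists at 3387 peaks, 783 bRG and 931 aRG-P peaks were unshared. In each of these settings aRG-P had more unshared peaks, but a scale common to both lists is an assumption.

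Unshared H3K27me3 peaks were shorter than shared ones in both cell types. A longer peak meets the 1 bp rule more easily, so part of this pattern is fixed by the rule. The median length in bRG was 768.5 bp for unshared and 2383 bp for shared peaks, and in aRG-P it was 892 bp for unshared and 3134 bp for shared ones. All 236 bRG domains of at least 10 kb overlapped an aRG-P peak, and 7 of 295 aRG-P domains of that length lacked a bRG peak. None of the 85 bRG and 112 aRG-P domains of at least 20 kb was unshared. In the lowest bin by length, 42.5% of bRG and 81.0% of aRG-P peaks were unshared.

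The longest isolated domains of either cell type were mostly marked in other cell types too. In bRG the longest, 7.47 kb on chromosome 19 from 40949972 to 40957437, lay 6788 bp from an aRG-P peak and overlapped domains of 19.5 kb in aRG-N and 18.6 kb in N. A domain of 5.47 kb on chromosome 7 from 37475773 to 37481243 was found in bRG, aRG-N, NEC and N, and was missing in aRG-P alone, where the nearest peak was 260129 bp away. H3K4me3 was present there in all 5 lists, with a fold enrichment of 14.2 in bRG and 14.1 in aRG-P. Another of 5.58 kb on chromosome 16 from 30061010 to 30066593 had H3K27me3 in bRG and N only, with H3K4me3 again in all 5 lists. The pattern of the chromosome 7 domain was also that of chromosome 12 from 71210824 to 71214742, 3.92 kb long, and of chromosome 3 from 89715521 to 89719428, 3.91 kb long. Of the 10, only the 2.82 kb domain on chromosome 4 from 118218586 to 118221404 was found in bRG alone. H3K27me3 overlapped 5 of the 10 in aRG-N, 7 in NEC and 8 in N. Of all 362 isolated bRG peaks, 47.2% overlapped the mark in aRG-N, 43.1% in NEC and 58.0% in N, and 25.4% in no further list. H3K4me3 was present at 5 of the 10, in bRG and in aRG-P alike. Over all 362 the share was 39.0% for H3K4me3 of bRG and 40.1% for that of aRG-P.

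The longest isolated aRG-P domains were 16.4 kb to 6.62 kb long, and all 10 overlapped H3K27me3 in aRG-N. The longest lay on chromosome 18 from 66184147 to 66200526, 6179 bp from a bRG peak, and was marked in NEC (7.23 kb) and N (16.0 kb) as well. A domain of 13.2 kb on chromosome 13 from 36814537 to 36827706 was further from any bRG peak, at 752787 bp, and overlapped peaks of 7.14 kb in aRG-N, 14.9 kb in NEC and 1.02 kb in N. H3K4me3 within it had a fold enrichment of 10.6 in bRG and 7.28 in aRG-P. On chromosome 16, neighbouring domains of 10.5 kb (6951293 to 6961794) and 9.69 kb (6966430 to 6976120) were present in aRG-P, in aRG-N and as short peaks of 0.753 and 1.18 kb in N. Neither carried H3K4me3 in any list. A domain of 6.62 kb on chromosome 2 from 61642527 to 61649149 was marked in aRG-P, aRG-N and NEC and absent in bRG and N. H3K4me3 at this domain was present in all 4 E14.5 lists and absent in NEC. Of all 1504 isolated aRG-P H3K27me3 peaks, 57.3% overlapped the mark in aRG-N, 34.6% in NEC and 41.5% in N. Of the 10, 6 overlapped H3K27me3 in NEC and 8 in N, and 4 held H3K4me3 in bRG and in aRG-P. Over all 1504 the share with H3K4me3 was 10.2% in bRG and 10.2% in aRG-P.

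**Figure D3:**
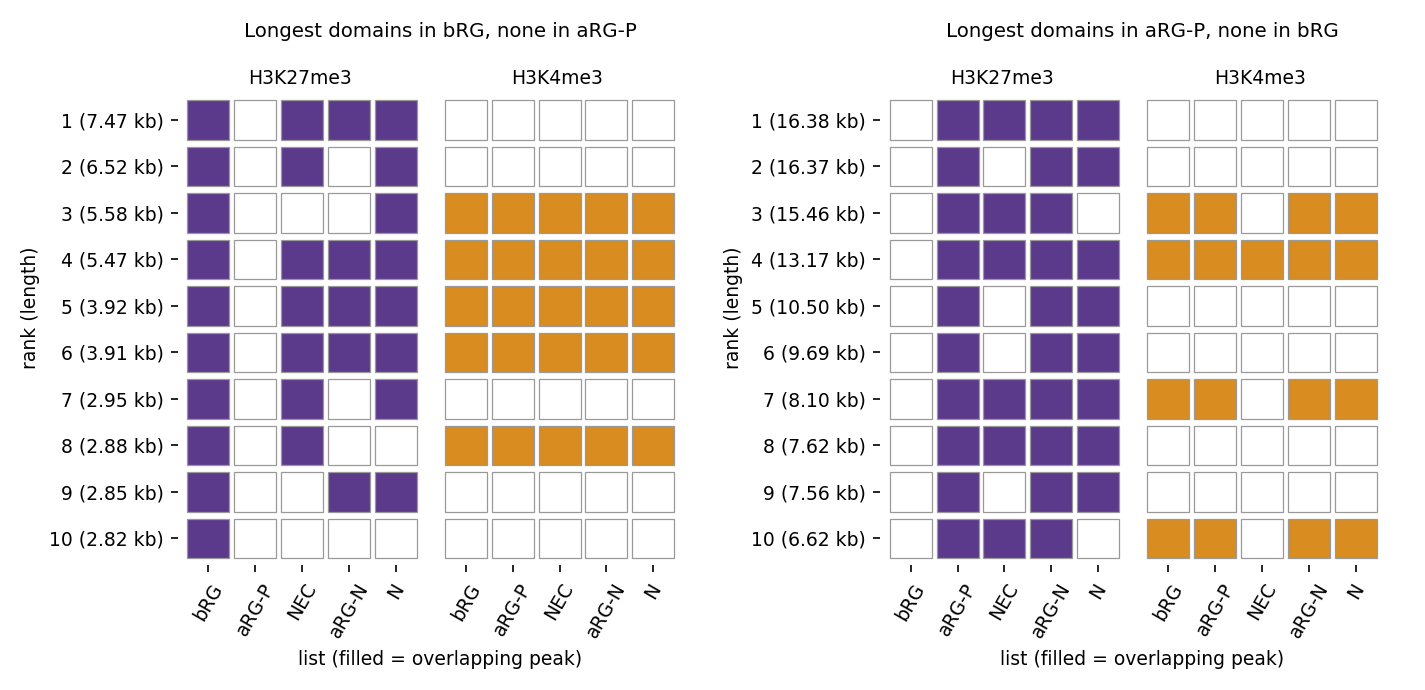
Presence (filled) of H3K27me3 and H3K4me3 peaks of the 5 lists at the 10 longest isolated H3K27me3 domains of bRG (left) and of aRG-P (right), ranked by length in kb. All 10 aRG-P domains were marked in aRG-N, and 5 of the 10 bRG domains were; H3K4me3 in bRG overlapped 5 of the bRG domains and 4 of the aRG-P domains.

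Across all unshared H3K27me3 peaks, N overlapped 63.5% of those of bRG and 46.1% of those of aRG-P. The aRG-N list, the longest of the autosomal H3K27me3 lists, overlapped 55.1% of those of bRG and 60.4% of those of aRG-P. NEC overlapped 42.2% in bRG and 34.9% in aRG-P. Peaks found in no further list numbered 106 in bRG (19.1% of its unshared peaks) and 560 in aRG-P (29.0%). As shares of the unshared peaks, N alone of the other 3 lists held 83 bRG peaks (15.0%) and 96 aRG-P peaks (4.97%). The aRG-N list alone held 47 bRG peaks (8.48%) and 285 aRG-P peaks (14.8%), and NEC alone held 24 (4.33%) and 46 (2.38%). In the opposite sense, 149 bRG peaks (26.9%) were missing from aRG-P alone among the 5 lists and 415 aRG-P peaks (21.5%) from bRG alone.

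Where both lists held an H3K27me3 domain, it was usually shorter in bRG. Joining peaks that touched gave 2654 domains with peaks of both lists, and bRG covered fewer bases than aRG-P in 1851 of them and more in 803. The median length covered was 2.52 kb in bRG and 3.18 kb in aRG-P. The median ratio of bRG over aRG-P was -0.24 on the log2 scale, with quartiles of -0.71 and 0.07. The bRG domain was over 2-fold shorter at 435 (16.4%) and over 2-fold longer at 123 (4.63%). The bRG mark was split into more pieces in 149 of the domains, and the aRG-P mark in 41. The bRG list also stopped at a higher score (15.6, against 13.2 in aRG-P). Lengths were not compared at a common score, so the part of this limit in the shorter lengths was not tested. H3K4me3 ran the other way, with a median log2 ratio of 0.15 over the 12889 regions found in both lists.

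**Figure D4:**
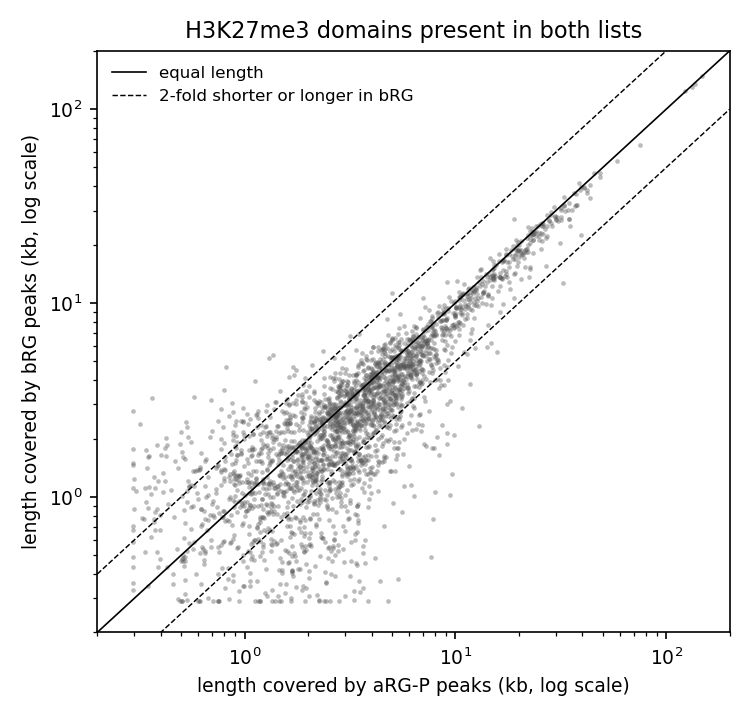
Length covered by bRG peaks against length covered by aRG-P peaks (kb, log scales) for the 2654 H3K27me3 domains present in both lists, 1 point each, with lines at equal length and at 2-fold. More points lie below the line of equal length (1851) than above it (803), and short domains spread more widely than long ones.

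The greatest decrease was on chromosome 7 from 150541227 to 150573657, where 4 bRG peaks covered 12.8 kb and 1 aRG-P peak covered 32.2 kb. On chromosome 19 from 59231419 to 59272781 the domain was 22.4 kb long in bRG and 39.4 kb in aRG-P. On chromosome 1 from 74925205 to 74952055, 3 bRG peaks covered 15.5 kb and 1 aRG-P peak covered 26.9 kb. On chromosome 9 from 29589851 to 29602752, bRG kept 2.33 kb and aRG-P had 12.9 kb. None of these domains overlapped H3K4me3 in bRG or aRG-P. The greatest increase, on chromosome 9 from 98849009 to 98877705, covered 8.07 kb more in bRG than the 18.9 kb of aRG-P. On chromosome 11 from 76477523 to 76489435 the length was 11.2 kb in bRG and 4.99 kb in aRG-P, and on chromosome 10 from 119910916 to 119915583 it was 4.67 kb in bRG and 0.818 kb in aRG-P. H3K4me3 overlapped the chromosome 9 domain in bRG (3.64) and not in aRG-P, and the chromosome 11 domain in aRG-P (4.71) and not in bRG. At the chromosome 10 domain both cell types carried H3K4me3, with fold enrichments of 9.05 in bRG and 11.1 in aRG-P.

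Unshared and shared H3K27me3 peaks of aRG-P differed in how many held H3K4me3, and in bRG the pooled shares were close while the bins by length ran both ways. In bRG, H3K4me3 of that cell type overlapped 31.4% of the 554 unshared (interval 27.6 to 35.5%) and 32.8% of the 2833 shared H3K27me3 peaks (interval 31.1 to 34.6%). In aRG-P it overlapped 9.22% of the 1931 unshared (interval 7.96 to 10.6%) and 36.3% of the 2703 shared ones (interval 34.4 to 38.1%). In aRG-P the share was lower for unshared than for shared peaks in each of the 4 bins by length. In the lowest bin, H3K4me3 overlapped 5.32% of unshared and 19.5% of shared peaks, in the second 9.70% and 31.3%, in the third 18.6% and 41.0%, and in the highest 29.6% and 37.6%. In bRG the lowest bin, with 360 of the 554 unshared peaks, had H3K4me3 at 29.2% of unshared and 19.1% of shared peaks. The shares were 34.8% and 31.3% in the second bin and 30.8% and 40.4% in the third, which held 26 unshared peaks. In the highest bin 5 of 7 unshared bRG peaks and 34.6% of the shared ones held it.

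The reverse view, H3K27me3 at H3K4me3 peaks, also set the 2 lists apart. In bRG, H3K27me3 of that cell type overlapped 15.0% of the 1172 unshared (interval 13.0 to 17.2%) and 8.05% of the shared H3K4me3 peaks. In aRG-P it overlapped 27.7% of the 1058 unshared (interval 25.0 to 30.5%) and 7.59% of the shared ones. Unshared H3K4me3 peaks were mostly weak, and in the lowest bin by fold enrichment the shares in bRG were 15.6% of unshared and 20.7% of shared peaks. In the lowest bin of aRG-P they were 27.1% of unshared and 15.5% of shared peaks. Among isolated peaks, 28.3% of the 339 in bRG and 46.2% of the 368 in aRG-P overlapped H3K27me3 of their own cell type.

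Joint changes of both marks were few. Joining H3K4me3 peaks of both lists gave 15119 regions, of which 11572 had H3K4me3 alone in both cell types and 800 had both marks in both. At these regions H3K27me3 was present in bRG and absent in aRG-P in 306 (2.02%), and absent in bRG and present in aRG-P in 349 (2.31%). An exchange from H3K4me3 in aRG-P to H3K27me3 in bRG was seen at 31 regions, 2.93% of the 1058 without H3K4me3 in bRG (interval 2.00 to 4.13%). The opposite exchange, H3K4me3 in bRG and H3K27me3 in aRG-P, was seen at 39, 3.33% of the 1172 without H3K4me3 in aRG-P (interval 2.38 to 4.52%). Both marks were absent in bRG and present in aRG-P at 50 regions (4.73% of 1058, interval 3.53 to 6.18%), and present in bRG and absent in aRG-P at 18 (1.54% of 1172, interval 0.913 to 2.42%). Of these shares, the exchange to H3K27me3 in bRG and joint presence in bRG had intervals that hold their background of 2.02%. Those of the exchange to H3K4me3 in bRG and of joint absence in bRG lay above their background of 2.31%. The intervals count regions as independent, although some were pieces of 1 domain, so they are no test against the background. Regions on chromosome 7 from 58878358 and from 58878801, for example, shared 1 aRG-P H3K27me3 domain. H3K27me3 was present in aRG-P at 27.7% of regions with H3K4me3 in aRG-P only and at 10.3% of all regions. After these values had been seen, the shares were also taken among regions with the same H3K27me3 state in aRG-P. Against all regions of that state, every class but joint presence in bRG then changed its place. Where aRG-P had H3K27me3, bRG lacked it at 17.1% of 293 regions with H3K4me3 in aRG-P only (interval 12.9 to 21.9%) and at 19.8% of 197 with H3K4me3 in bRG only (interval 14.47 to 26.05%), against 22.5% of all 1550. Where aRG-P had no H3K27me3, bRG had it at 4.05% of 765 regions with H3K4me3 in aRG-P only (interval 2.77 to 5.70%) and at 1.85% of 975 with H3K4me3 in bRG only (interval 1.10 to 2.90%), against 2.26% of all 13569. These backgrounds are not matched for H3K4me3 strength, with which H3K27me3 varied. In aRG-P it overlapped 15.5% of shared H3K4me3 peaks in the lowest bin by fold enrichment and 0.905% in the highest. The counts also hung on the list length and the overlap rule. With lists of equal length, joint absence and joint presence in bRG numbered 30 and 37, so their order turned. With peaks within 5000 bp counted as marked, the exchanges numbered 7 to H3K27me3 in bRG and 18 to H3K4me3 in bRG. Only 12 of the 31 and 11 of the 39 exchange regions had no H3K4me3 peak of the other cell type within 5000 bp. Most of them thus lay near H3K4me3 of both cell types.

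**Figure D5:**
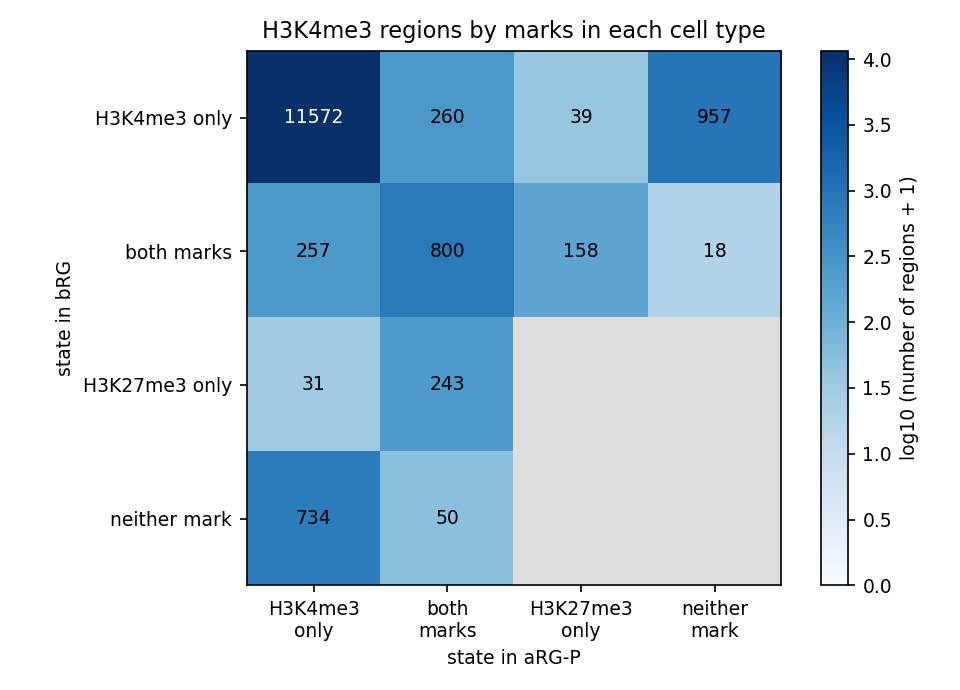
Number of the 15119 H3K4me3 regions in each combination of marks in bRG (rows) and aRG-P (columns), with shading on a log10 scale; grey cells cannot hold a region, since each region has H3K4me3 in at least 1 of the cell types. The exchange cells hold 31 and 39 regions, against 11572 regions with H3K4me3 alone in both.

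Where H3K4me3 was kept in both cell types, H3K27me3 was present in bRG only at 257 regions and in aRG-P only at 260. A peak of the other list lay within 5000 bp at 112 of the 257 and 110 of the 260, so these regions sat at the edge of a domain or near another one. This left 145 regions with H3K27me3 in bRG and none nearby in aRG-P, and 150 with the reverse. The counts in the 2 directions were thus close at H3K4me3 regions, although the aRG-P H3K27me3 list was longer.

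Among the 31 exchanges to H3K27me3 in bRG, the region with the highest H3K4me3 fold enrichment was on chromosome 11 from 75840829 to 75841418. It had H3K4me3 of 8.997 in aRG-P and no bRG peak within 27099 bp, and an H3K27me3 peak of 1.57 kb in bRG with none overlapping in aRG-P, whose nearest lay 629 bp away. On chromosome 7 from 108496576 to 108496939, H3K4me3 was 6.43 in aRG-P, and H3K27me3 measured 0.960 kb in bRG, 1.89 kb in aRG-N, 0.941 kb in NEC and 1.86 kb in N. This region had neither mark of the other cell type nearby, which held for 5 of the 31. On chromosome 12 from 58677110 to 58677381, H3K4me3 was 6.85 in aRG-P and H3K27me3 measured 2.72 kb in bRG, with an aRG-P H3K27me3 peak 752 bp away and peaks in aRG-N, NEC and N as well. Of the 31, 21 overlapped H3K27me3 in aRG-N, 22 in NEC and 30 in N. Over all 306 H3K4me3 regions with H3K27me3 in bRG and none in aRG-P, these shares were 57.8% in aRG-N, 68.6% in NEC and 73.2% in N.

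Among the 39 exchanges to H3K4me3 in bRG, 8 had neither mark of the other cell type within 5000 bp. On chromosome 16 from 96502379 to 96502759, H3K4me3 was 5.96 in bRG with the nearest aRG-P peak 88481 bp away, and H3K27me3 measured 1.91 kb in aRG-P with the nearest bRG peak 575883 bp away. A region on chromosome 7 from 29478337 to 29478744 (5.44 in bRG) had H3K27me3 of 1.17 kb in aRG-P. On chromosome 7 from 58878358 to 58878582, H3K4me3 was 5.51 in bRG inside an aRG-P H3K27me3 domain of 8.10 kb that was isolated from bRG. An aRG-P H3K4me3 peak lay 891 bp from that region, so the domain held H3K4me3 in both cell types.

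Of the 50 regions where bRG lacked both marks of aRG-P, 12 had no peak of either mark in bRG within 5000 bp. On chromosome 17 from 27792538 to 27792772, H3K4me3 was 8.14 and H3K27me3 1.12 kb in aRG-P, and the nearest bRG peaks were 20053 bp away for H3K4me3 and 139612 bp away for H3K27me3. On chromosome 13 from 103887142 to 103887340, H3K4me3 was 6.85 and H3K27me3 1.94 kb in aRG-P. Of these 50, 41 had H3K4me3 and 41 had H3K27me3 in NEC, near the 85.3% of all unshared aRG-P H3K4me3 peaks and the 84.0% of the 349 regions with H3K27me3 in aRG-P and none in bRG. Of the 18 regions with both marks in bRG and neither in aRG-P, 4 had no aRG-P peak of either mark within 5000 bp. The one on chromosome 15 from 88970745 to 88971220 had H3K4me3 of 4.67 and H3K27me3 of 1.46 kb in bRG. Such overlap of separate lists does not show both marks on the same chromosome copy.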

How the data were processed

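Chromatin immunoprecipitation used a kit for low cell numbers, per the labels' protocols. How the cells were purified is not given in the sources used here. Build mm9 and the tools Bowtie 1.0.0, MACS2 and bedtools are named in the submitters' processing notes. The authors deposited 1 peak list per cell type and mark, called on combined samples and kept near transcripts, per the file headers and peak names. Per peak, the deposited H3K4me3 lists hold the caller's −log10 p, its −log10 q and a fold enrichment, which is a ratio over background. For H3K27me3 the deposited columns are treated as a score of unsettled meaning.

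Overlaps of 1 bp or more were counted on chromosomes 1 to 19 (Python 3.11.15, pandas 2.3.3, numpy 2.4.6), with intervals from scipy 1.17.1 and figures from matplotlib 3.10.9. Named regions were, per mark and direction, the 10 isolated peaks that ranked first by fold enrichment for H3K4me3 or by length for H3K27me3, the 5 strongest H3K4me3 regions per kind of joint change, and the 5 shared H3K27me3 domains with the greatest increase or decrease in length. Those described are some of these. The comparison, lists and rules were chosen with earlier results of these data known. The gene table at hand was of build GRCm38.p6, so no gene name or sequence is attached to a region. The overlap counting was checked on altered lists: 200 peaks taken out of each bRG list (14596 H3K4me3 and 3387 H3K27me3 peaks) and 200 put in were each recovered. This check says nothing about the peak calls or the differences between cell types. Alternatives changed the overlap rule, the thresholds, the list lengths, the chromosomes and the regions.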

Additional observations from a re-analysis of the deposited data

How the results depend on the processing

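No paired analysis was possible because each list was called on combined samples, which also means that no replicate could be left out. Of 50 recomputed counts (8 results, 9 settings), 29 stayed within 1.5 times the reported count. With at least 50% of a peak overlapped, unshared bRG peaks numbered 1856 for H3K4me3 and 844 for H3K27me3. With peaks within 5000 bp counted as shared or marked, unshared H3K4me3 peaks numbered 339 in bRG and 368 in aRG-P, unshared bRG H3K27me3 peaks 362, exchanges to H3K27me3 in bRG 7, exchanges to H3K4me3 in bRG 18, and regions lacking both marks of aRG-P 21 and having both in bRG alone 6. With gaps up to 3000 bp joined, unshared H3K4me3 peaks numbered 363 in bRG and 396 in aRG-P. With both H3K4me3 lists at 14596 peaks, 1479 bRG peaks (10.1%) and 727 aRG-P peaks (4.98%) were unshared. So which cell type had more unshared H3K4me3 peaks, and by how much, depended on the setting. At equal list length, unshared aRG-P H3K27me3 peaks numbered 931, and joint absence and joint presence in bRG 30 and 37, so their order turned. Unshared aRG-P H3K27me3 peaks numbered 1096 above the common lowest score. With peaks under 1000 bp removed, unshared H3K27me3 peaks numbered 331 in bRG and 1134 in aRG-P. With regions of both marks joined, the exchanges to H3K27me3 and to H3K4me3 in bRG numbered 7 and 15, and joint absence and joint presence 20 and 8. Joining and removing leave fewer peaks by construction. The cause of the other shifts was not tested. Read depth is unknown, so a missing peak cannot be told apart from a weak one.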

Other observations

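Unshared H3K27me3 peaks were also counted along the genome. Of 1255 windows of 1 Mb that held a bRG peak, 430 held an unshared one and 6 held 5 or more. Of 1384 windows with an aRG-P peak, 913 held an unshared one and 82 held 5 or more. In bRG the highest number, 8 of 20 peaks, lay on chromosome 11 between 44000000 and 45000000, against 16.4% unshared in the whole bRG list, and the neighbouring window from 43000000 to 44000000 held 5 of 15. The window on chromosome 8 from 125000000 to 126000000 held 6 unshared bRG peaks of 10, among 24 H3K4me3 peaks of bRG and 29 of aRG-P. In aRG-P the highest number, 12 of 22 peaks, lay on chromosome 11 between 35000000 and 36000000, and chromosome 7 from 138000000 to 139000000 held 12 of 28 (42.9%), close to the 41.7% of the whole aRG-P list, so windows with many peaks rank high by number. The window on chromosome 12 from 118000000 to 119000000 held 10 unshared aRG-P peaks of 16, with 6 bRG peaks and no H3K4me3 peak in either cell type. These windows were ranked after the values were seen.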
